A study of Mus musculus with 45 samples.

Results

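The 10 small RNAs described here are mmu-mir-2137, mmu-mir-6240, mmu-mir-1961, mmu-mir-6538, mmu-mir-6236, mmu-mir-1957a, mmu-mir-5126, mmu-mir-3470a, mmu-mir-3473e and mmu-mir-3535. They are 10 of the 476 microRNAs (miRNAs) listed in at least 1 of 6 tables of small RNA sequencing from mouse alveolar macrophages (AM). They were selected on these same tables as annotated small RNAs with high values after ozone (O3), so the difference between O3 and filtered air (FA) is given below as a description, with no test. Of the 10, 9 were listed in all 6 tables and thus in all 45 mice, and mmu-mir-3470a was listed in 4 tables, those of SP-A2 males and females, co-ex females and KO males. A further question put to the data was whether these small RNAs were high and low together in individual mice of a group.

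The AM, the resident phagocytes of the airspace, were taken by bronchoalveolar lavage from mice aged 12 weeks, 18 h after an exposure of 3 h to FA or O3. KO mice lack surfactant protein A (SP-A), a collectin of the alveolar lining that binds to AM. The other mice carry human transgenes on this same KO background, so that no group makes mouse SP-A: SP-A2 mice express the human SP-A2 variant 1A0, and co-ex mice express both SP-A1 (6A2) and SP-A2 (1A0). Females had been synchronized for the estrous cycle. There were 3 SP-A2 males after FA and 3 after O3, 4 and 4 SP-A2 females, 4 and 3 co-ex males, 4 and 4 co-ex females, 4 and 4 KO males, and 4 and 4 KO females, each mouse being 1 replicate.

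A miRNA is cut from a hairpin precursor and loaded as a single strand into an Argonaute protein, where bases 2 to 8, the seed, pair with target mRNAs. In AM, miRNAs such as miR-21 and miR-155 are known for their part in inflammatory signaling. Names of miRNAs follow the order of entry into the miRNA registry, and many high-numbered entries rest on sequencing reads alone. Fragments of ribosomal RNA, small nucleolar RNA (snoRNA) or repeats can match such entries. The values here are reads assigned to each name by the authors, and the counts cannot tell a processed miRNA from another RNA fragment of like sequence.

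The mature sequences are shown because the seed, the base composition and the match to other RNAs differ sharply between the members. RefSeq (mouse assembly GRCm38.p6) held a mature sequence for 8 of the 10, given 5′ to 3′ with the seed in capitals.
miR-2137: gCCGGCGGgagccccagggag
miR-6538: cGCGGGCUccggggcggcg
miR-5126: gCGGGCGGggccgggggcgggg
miR-6236: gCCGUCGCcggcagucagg
miR-6240: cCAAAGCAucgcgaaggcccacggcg
miR-3473e: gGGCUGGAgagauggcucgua
miR-3535: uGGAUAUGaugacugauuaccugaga
miR-1961: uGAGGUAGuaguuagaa

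The 5 sequences listed first consist mostly of G and C. GC content was 85.7% in miR-2137, 94.7% in miR-6538, 78.9% in miR-6236 and 69.2% in miR-6240, and miR-5126 holds no A or U. It was lowest in miR-1961, at 35.3%. The median of the 8 members was 74.1%, against 50.0% over the other 399 listed miRNAs with a RefSeq sequence and 54.5% over the 110 of these numbered 1000 or higher. Of those 399 miRNAs, 20 (5.01%) reached the 69.2% of miR-6240. This is a description of the sequences, with no test. No seed was shared between these 8 members, and that of miR-6240 is shared with miR-330-3p.

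Some members resembled other listed miRNAs or other transcripts. miR-1961 carries the seed of the let-7 family, regulators of cell differentiation and growth, and its first 13 bases are those of let-7g and let-7i, as seen in the following lines.
miR-1961: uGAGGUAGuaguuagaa
let-7g-5p: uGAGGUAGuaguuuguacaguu
let-7i-5p: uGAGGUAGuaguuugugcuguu
miR-3473e shares its seed and its first 18 bases with miR-3473b, another listed miRNA.
miR-3473e: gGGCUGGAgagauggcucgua
miR-3473b: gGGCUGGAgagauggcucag
Reads of miR-1961 and miR-3473e could therefore have been split with these relatives in the authors' counting, and their values are uncertain to that extent. A stretch of 16 bases of miR-3473e also occurred, on the sense strand, in transcripts of 606 other genes of the GENCODE M21 annotation, and 9 of the 407 listed miRNAs with a sequence matched at least 100 other genes in this way. For miR-5126 the number was 10 genes. No other annotated transcript held 16 bases of miR-2137, miR-6240, miR-6236 or miR-1961. In all, 4 of the 8 members with a sequence had such a sense match in another gene. Among the 399 other listed miRNAs with a sequence, 221 (55.4%) had such a match. Having a match of this kind therefore did not set the members apart from the other listed miRNAs. The sequence of the ribosomal RNA precursor was not used here, so a match of miR-6240, miR-6236 or any other member to it was not examined.

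By GENCODE M21 (GRCm38, all positions 1-based), the hairpin of miR-2137 lies at chrX:72992079-72992144 (+ strand) in an intron of Zfp185, that of miR-6538 at chr12:26414901-26415010 (- strand) in an intron of Rnf144a, and that of miR-3473e at chr5:31667231-31667340 (- strand) in an intron of Rbks and opposite Gm43809. The hairpin of miR-1957a is at chr4:119129779-119129844 (+ strand) in an intron of Slc2a1, which encodes the glucose transporter GLUT1. Antisense to a host gene lie miR-1961 at chr5:92788451-92788562 (- strand), in an intron of Shroom3, and miR-5126 at chr1:84695839-84695915 (+ strand), over an exon of Dner. miR-3535 at chr1:86351981-86352127 (- strand) overlaps the snoRNA gene Gm24148 within Ncl, the gene of nucleolin, and shares 16 or more bases with that snoRNA. The hairpins of miR-6240 (chr5:114851948-114852064, + strand), miR-6236 (chr9:110281287-110281409, + strand) and miR-3470a (chr6:83090311-83090387, - strand) overlap no other annotated gene. The build that the authors used was not given in the sources used here.

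The reads on listed miRNAs numbered 137965 to 2884013 per mouse, with a median of 766213. The AM label was checked against miRNA markers. The macrophage or myeloid markers miR-223-3p (762.7 to 6985 normalized, the value in each mouse's table) and miR-21a-5p (3081 to 154675) were present in all 45 mice. The other markers of that list were each at 0 in some mice. Of 45 mice, miR-142a-3p and miR-511-5p were at 0 in 8 each, miR-155-5p in 4, miR-146a-5p in 3 and miR-142a-5p in 2. miR-511-3p was at 0 in 8 of the 30 mice in which it was listed. KO female FA replicates 3 and 4 had 4 of 8 markers at 0, with summed values of 5264 and 30599. Epithelial markers were present as well, with miR-200c-3p between 529 and 7688 in all 45 mice. Except for miR-200b-3p, the other epithelial markers were at 0 in some mice. The erythroid marker miR-486b-5p lay between 1298 and 603115. The other erythroid markers were far lower, with miR-451a at 0 to 266, miR-144-3p at 0 to 704 and miR-144-5p at 0 to 1591. Of the epithelial list, 10 to 13 of 13 markers were listed per table. The endothelial marker miR-126a-3p was listed in 3 tables only.

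Together the 10 members took 0.291% of the reads of a mouse (95% Wilson interval 0.285% to 0.297%) up to 19.5% (19.4% to 19.6%) after FA, with a median of 0.803%. After O3 they took 0.348% to 12.4% of the reads, with a median of 1.80%. These intervals cover counting error only. The 19.5% was found in SP-A2 female FA replicate 4, which stood apart from the other FA mice, whose highest share was 3.04%.

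miR-2137 reached the highest values of the members after O3, and its values in every mouse are given first as normalized values. In SP-A2 males they were 882, 438 and 763 after FA and 635, 3000.4 and 11946 after O3. The SP-A2 females had 652, 554, 826 and 2478 after FA and 22708, 1015, 16679.5 and 2559 after O3. In both, some O3 mice were high and others lay among the FA mice, so that the groups overlapped. In co-ex males the values were 349, 1540.3, 102 and 0 after FA and 2589.7, 4421 and 37178 after O3. In co-ex females they were 2007, 589, 1498 and 333 and 5336, 1789, 24995 and 1986. Every O3 mouse lay above every FA mouse in co-ex males but not in co-ex females. The 0 in co-ex male FA replicate 4 was 0 of 1300004 reads, which allows a share of up to 0.000231%. In KO males the values were 142, 749, 437 and 157 after FA and 59395, 24177, 51967 and 1115 after O3. In KO females they were 609.8, 944, 95.4 and 1323 and 33791, 1459, 4009 and 2201. In KO mice of both sexes the O3 and FA values did not overlap, although KO male O3 replicate 4 was far below the other 3 O3 mice.

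The ratio of the O3 mean to the FA mean of miR-2137 was largest in KO males, at 92.1, followed by 29.6 for co-ex males and 13.9 for KO females. It was 9.53 for SP-A2 females, 7.7 for co-ex females and 7.48 for SP-A2 males. These ratios rested on few mice. Leaving out 1 mouse at a time, the ratio of miR-2137 ranged from 69.4 to 139 in KO males, from 7.04 (without O3 replicate 3) to 98.0 (without FA replicate 2) in co-ex males and from 3.44 (without O3 replicate 1) to 18.8 in KO females. For SP-A2 females the range was 5.99 (without O3 replicate 1) to 15.9 (without FA replicate 4), for co-ex females 2.74 (without O3 replicate 3) to 10.6, and for SP-A2 males 2.62 (without O3 replicate 3) to 10.8. On the scale of log2(normalized value + 1), the O3 minus FA difference with its standard error was 6.45 ± 1.90 in co-ex males, which include the mouse with no read, and 5.86 ± 1.08 in KO males, so that the order of these 2 was the reverse of that of the ratios. It lay between 2.09 ± 0.86 (SP-A2 males) and 3.13 ± 0.90 (KO females) in the other 4 tables. The median of that difference over all miRNAs of a table lay between -0.29 and 0.64.

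**Figure D1:**
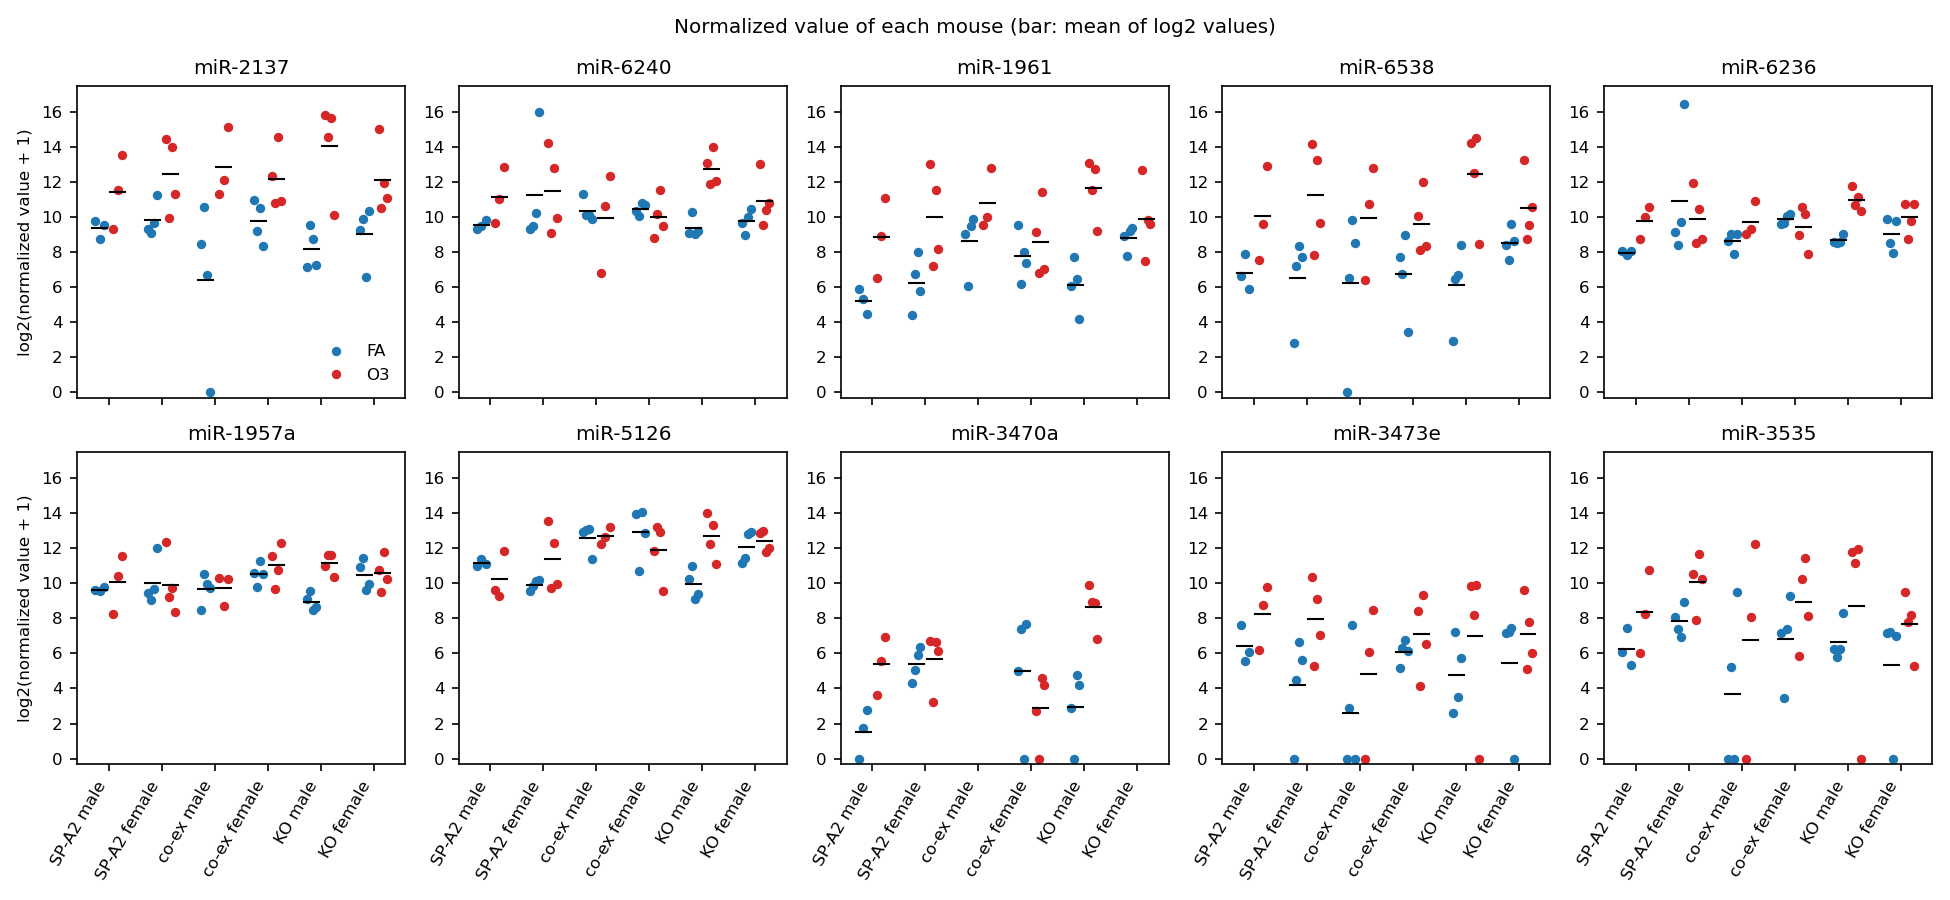
Normalized value of each member in each mouse, as log2(normalized value + 1) on the y axis, by genotype and sex on the x axis. Blue points are FA mice, red points O3 mice and black bars the mean of the log2 values of a group. In miR-6240 and miR-6236 the highest point of the panel is an FA mouse, SP-A2 female replicate 4, and a point at 0 is a mouse with no read.

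The members were not alike in this respect. The ratio was at least 2 in every table in which they were listed for miR-2137, miR-1961, miR-6538, miR-3473e and miR-3535. It was at least 2 in 3 of 6 tables for miR-6240 and miR-6236, in 2 of 6 for miR-5126, in 2 of 4 for miR-3470a and in 1 of 6 for miR-1957a. Without SP-A2 female FA replicate 4 it was at least 2 in 4 of 6 tables for miR-6240 and miR-6236 and in 2 of 6 for miR-1957a, whose ratio in SP-A2 females was then 2.55 rather than 1.12. By table, 8 of 10 members were at least 2-fold in SP-A2 males, where 27% of all miRNAs of the table were, and 6 of 10 in SP-A2 females, with 24.7% of all miRNAs. Without SP-A2 female FA replicate 4 the count in SP-A2 females was 9 of 10. In co-ex males 6 of 9 members were at least 2-fold beside 26.9% of all miRNAs, and in co-ex females 5 of 10 beside 30%. In KO males 10 of 10 members were at least 2-fold beside 30.5% of all miRNAs, and in KO females 6 of 9 beside 27.9%. Since O3 against FA chose the members, nothing is read from these counts.

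miR-1961, with the let-7 seed, was low in most FA mice. In SP-A2 males its normalized values were 59.3, 39.7 and 21.1 after FA and 93.7, 497 and 2240.4 after O3. The SP-A2 females had 20.8, 107, 262 and 54.6 and 8447, 149, 2988 and 298. The SP-A2 males of the 2 exposures did not overlap, while SP-A2 female O3 replicate 2 lay among the FA mice. In co-ex males the values were 538, 67.5, 723 and 942 after FA and 763, 1035 and 7126 after O3. In co-ex females they were 765, 71.6, 254 and 169 and 572, 111, 2756 and 132. Co-ex male O3 replicate 3 and co-ex female O3 replicate 3, which were the highest in miR-2137, were also the highest here. KO males had 66.8, 216, 89.2 and 17.6 after FA and 8668, 3006, 7057 and 595 after O3. KO females had 489, 223, 596 and 673 after FA and 6637, 182, 904 and 792 after O3. KO males did not overlap between the exposures. In KO females, O3 replicate 2 was below all 4 FA mice. The ratio of means ranged from 2.84 in co-ex females to 49.7 in KO males.

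miR-6538, the GC-rich entry in the intron of Rnf144a, followed the same mice. SP-A2 males had 99.4, 239 and 58.7 after FA and 187, 801 and 7921 after O3. SP-A2 females had 6.23, 148, 326 and 209.6 and 18422, 227, 9966 and 834. In both, the O3 mice that were high in miR-2137 were high in miR-6538 too. Co-ex males had 0, 90.6, 917 and 377 after FA and 83.7, 1711 and 7244 after O3. Co-ex females had 214, 107, 515 and 9.93 and 1087, 278, 4067 and 335. The groups overlapped in co-ex mice of both sexes. KO males had 6.75, 88.4, 104 and 345 after FA and 19687, 5929, 23551 and 355 after O3. KO females had 339.6, 188, 801 and 395 and 9974, 433, 754 and 1559. In KO males the lowest O3 value, in replicate 4, was close to the highest FA value, 345. The ratio of means ranged from 6.81 to 91.0 over the 6 tables.

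miR-6240 and miR-6236, which overlap no other annotated gene, were steadier after FA apart from a single mouse. In SP-A2 females miR-6240 was 639, 734, 1206 and 65316 after FA and 19146, 560.2, 7301 and 978 after O3. In the same females miR-6236 was 583, 337, 850.2 and 89827 after FA and 3913, 375, 1401 and 432 after O3. FA replicate 4 was thus the highest of all 45 mice in both. With it, the ratio of means in SP-A2 females was 0.412 for miR-6240 and 0.0668 for miR-6236, and without it the ratios were 8.13 and 2.59. In the other FA groups miR-6240 lay between 517 and 2558 and miR-6236 between 226 and 1185. In KO males, where the ratios were 11.5 and 5.27, miR-6240 was 539.7, 1241, 531 and 602 after FA and 8726, 3861, 16773 and 4256 after O3. miR-6236 was 381, 377, 391 and 536 and 3563, 1698, 2324 and 1298 in the same mice. Neither overlapped between the exposures in KO males. In co-ex females miR-6240 was 1321, 1084, 1772 and 1649 after FA and 456, 1147, 2994 and 717 after O3, with a ratio of 0.912, and the groups overlapped.

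miR-5126, made of G and C alone, had high values after FA as well. It was, for co-ex females, 15979, 1703, 17094 and 7498 after FA and 3737, 9384, 7837 and 748 after O3. In co-ex males it was 7791, 8406, 8739 and 2706 and 4824, 6546 and 9357. These groups overlapped, and the ratios were 0.513 and 0.9998. In KO males it was 1215, 2018, 556 and 684 after FA and 16635, 4893, 10219.5 and 2233 after O3. All 4 O3 males lay above all 4 FA males there, with a ratio of 7.6. In SP-A2 males the ratio was 0.735, with 2053, 2637 and 2245 after FA and 784, 630.3 and 3681 after O3.

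The remaining 4 members were lower or differed less between the exposures. miR-1957a, in the Slc2a1 intron, ranged from 358 to 4140 after FA and from 307 to 5177 after O3, with ratios of 1.06 to 4.66. miR-3535, within the snoRNA, ranged from 0 to 734 after FA and from 0 to 4952 after O3. miR-3473e ranged from 0 to 197 after FA and from 0 to 1299 after O3. miR-3535 had no read in 3 FA mice and 2 O3 mice, and the same 2 O3 mice, co-ex male replicate 1 and KO male replicate 4, had no read of miR-3473e. miR-3470a was the scarcest, with 0 to 201 after FA and 0 to 976 after O3, and between 0 and 491 reads per mouse. Its ratio was 40.9 in KO males, where it was 6.39, 0, 25.9 and 17.6 after FA and 976, 480.4, 469.9 and 115 after O3, and 0.115 in co-ex females.

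To ask whether the members were high and low together, each log2(normalized value + 1) was taken as a deviation from the mean of its group of mice, so that differences between groups, and thus between O3 and FA, dropped out. After O3, single mice were high or low in nearly all members. SP-A2 male O3 replicate 3 was the highest of its group in 10 of 10 members. SP-A2 female O3 replicate 1 was the highest in 9 of 10, co-ex male O3 replicate 3 in 8 of 9, co-ex female O3 replicate 3 in 7 of 10 and KO female O3 replicate 1 in 6 of 9. In KO males after O3, replicates 1 and 3 were each the highest in 5 of 10, and replicate 4 was below the group mean in 10 of 10. After FA the same was seen in SP-A2 female replicate 4, the highest of its group in 7 of 10, and in KO male replicate 2, the highest in 6 of 10. The median deviation of the 206 miRNAs listed in all tables lay on the same side in these mice. In the order named, it was 0.22, 0.23, 0.11, 0.15, 0.20, 0.45, 0.48 and -0.46 after O3 and 0.10 and 0.12 after FA. The median of the members was 1.65, 2.30, 2.30, 1.96, 2.09, 1.38, 1.19 and -2.12 after O3 and 1.30 and 0.75 after FA. The part of a shift of the whole library in these counts was not tested.

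**Figure D2:**
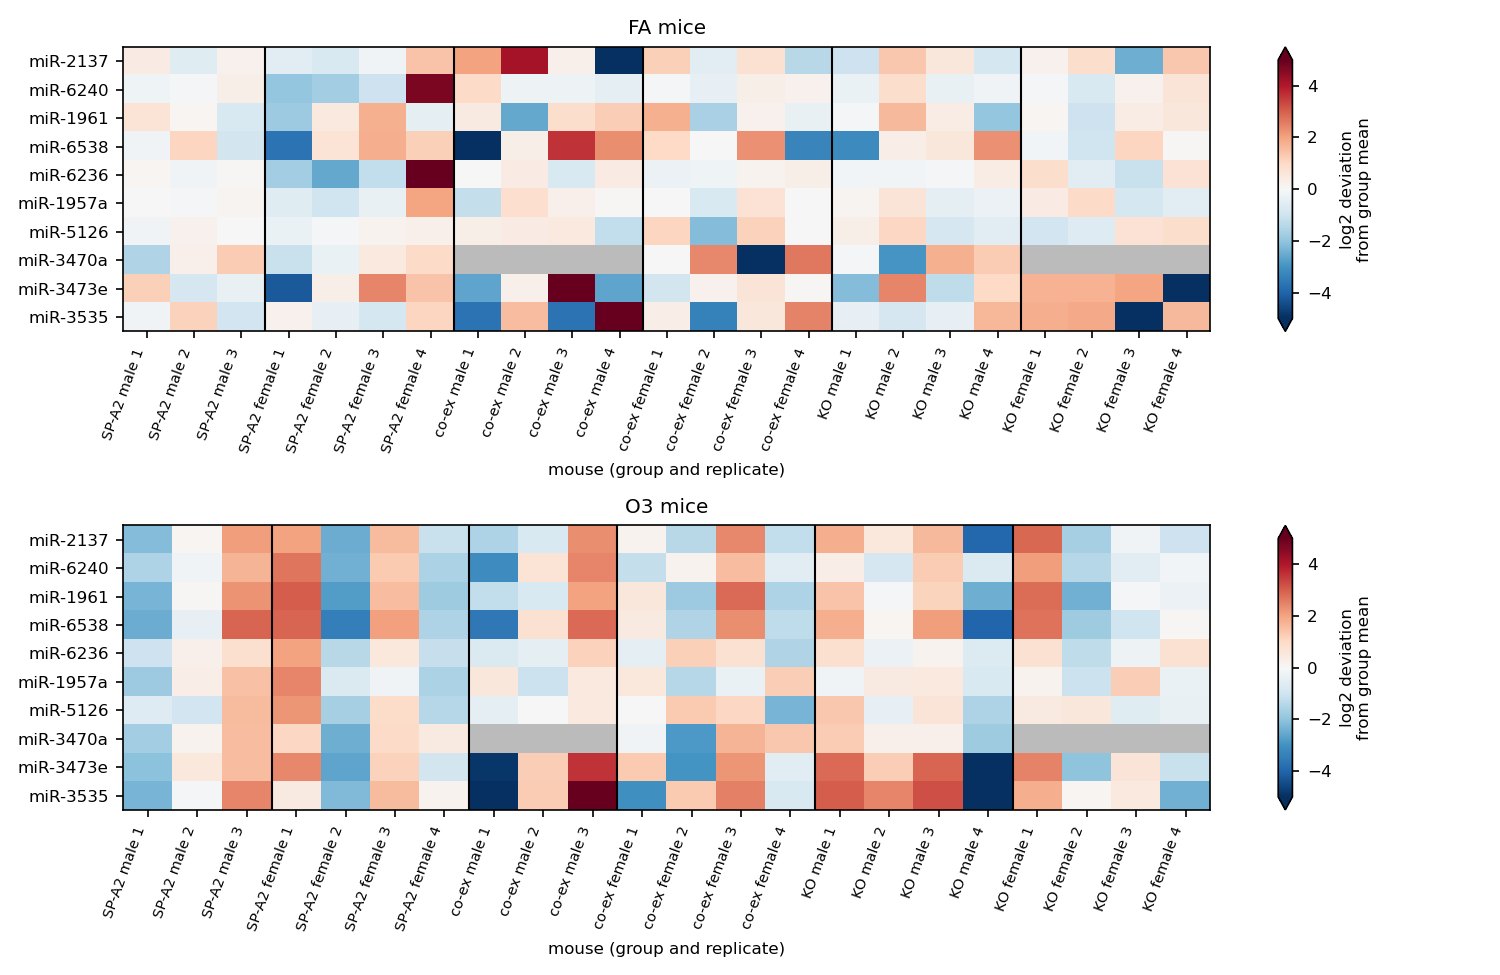
Log2 deviation of each mouse (columns, by group and replicate) from the mean of its group for each member (rows), with FA mice above and O3 mice below, red above and blue below the group mean. Grey marks tables that do not list miR-3470a. After O3 whole columns share a direction, as in SP-A2 male replicate 3, in which 10 of 10 members were at their highest.

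The deviations were compared with those of miR-2137 in the same mice. High values after O3 chose the members, so the permutation tests after O3 are not independent of that choice. A shift of the whole library was not removed in them. Over the 337 miRNAs fitted, the median r with miR-2137 after O3 was 0.16. The 95th percentile of those outside the list was 0.70. After O3, the correlation with miR-2137 was closest for miR-1961 (r = 0.96, rho = 0.96, permutation p = 1e-05 for both, 22 mice). That p is the smallest that 100000 resamples can give, with mice permuted within their group and 2 sides. For miR-6538 the values were r = 0.95 and rho = 0.95 (permutation p = 2e-05 for both), and for miR-3473e r = 0.90 and rho = 0.92 (permutation p = 1e-05 for both). miR-6240 had r = 0.79 and rho = 0.81 (permutation p = 0.00012 and 0.00014). miR-3535 had r = 0.77 and rho = 0.76 (permutation p = 0.00021 and 0.00037). The other 4 members also had positive correlations. They were r = 0.71 and rho = 0.71 for miR-6236 (permutation p = 0.00126 and 0.00173) and r = 0.69 and rho = 0.65 for miR-5126 (permutation p = 0.0023 and 0.00443). For miR-3470a, over 15 mice, r was 0.79 and rho 0.79 (permutation p = 0.00094 and 0.00289). The lowest was miR-1957a, with r = 0.53 and rho = 0.50 (permutation p = 0.0232 and 0.0447). Without the 2 mice farthest from the median in miR-2137, r after O3 lay between 0.55 for miR-1957a and 0.97 for miR-1961, so that the relations did not rest on those mice. A table held 3 or 4 O3 mice, too few for a correlation within it. Instead, the O3 mouse with the most miR-2137 was compared table by table. It was also the highest in miR-1961 in 6 of 6 tables and in miR-6240, miR-6538 and miR-3473e in 5 of 6. For miR-6236, miR-5126 and miR-3535 this was so in 4 of 6, for miR-3470a in 4 of 4 and for miR-1957a in 2 of 6. After FA the count was 4 of 6 for miR-1961 and 3 of 6 for miR-6240, miR-6236, miR-5126 and miR-1957a. It was 2 of 6 for miR-3473e, 1 of 6 for miR-3535, 1 of 4 for miR-3470a and 0 of 6 for miR-6538. The share over all miRNAs was not counted, so nothing is read from these counts.

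In the fit across all 337 miRNAs (limma with group as a factor, Benjamini-Hochberg adjusted over the 337), 7 of the 9 other members passed the false discovery rate (FDR) of 0.1 with a positive slope on miR-2137 after O3, beside 8.01% of all miRNAs fitted. A slope of 1 means that a mouse 1 log2 unit above its group in miR-2137 was also 1 log2 unit above in the member. The slopes were 1.14 ± 0.09 (SE) for miR-6538 and 0.97 ± 0.08 for miR-1961, with adjusted p of 4.3e-09 and 6.34e-09. They were 1.34 ± 0.24 for miR-3535 (adjusted p = 0.000435) and 1.30 ± 0.17 for miR-3473e (adjusted p = 4.67e-06). The slopes of the other 3 that passed were 0.67 ± 0.12 for miR-6240, 0.43 ± 0.10 for miR-5126 and 0.37 ± 0.09 for miR-6236, with adjusted p of 0.000308, 0.0101 and 0.0139. miR-1957a (slope 0.30 ± 0.11) and miR-3470a (0.60 ± 0.24) did not pass, at adjusted p of 0.135 and 0.154. The members were chosen on means after O3, which a few very high mice can raise in several miRNAs at once, so these tests are not independent of the choice. The calls of miR-6236 and miR-5126 were lost when each mouse was centred on its own median (adjusted p = 0.191 and 0.111). Over all 30 alternatives, which include leaving out each mouse, their slopes stayed between 0.32 and 0.44 and between 0.30 and 0.48.

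**Figure D3:**
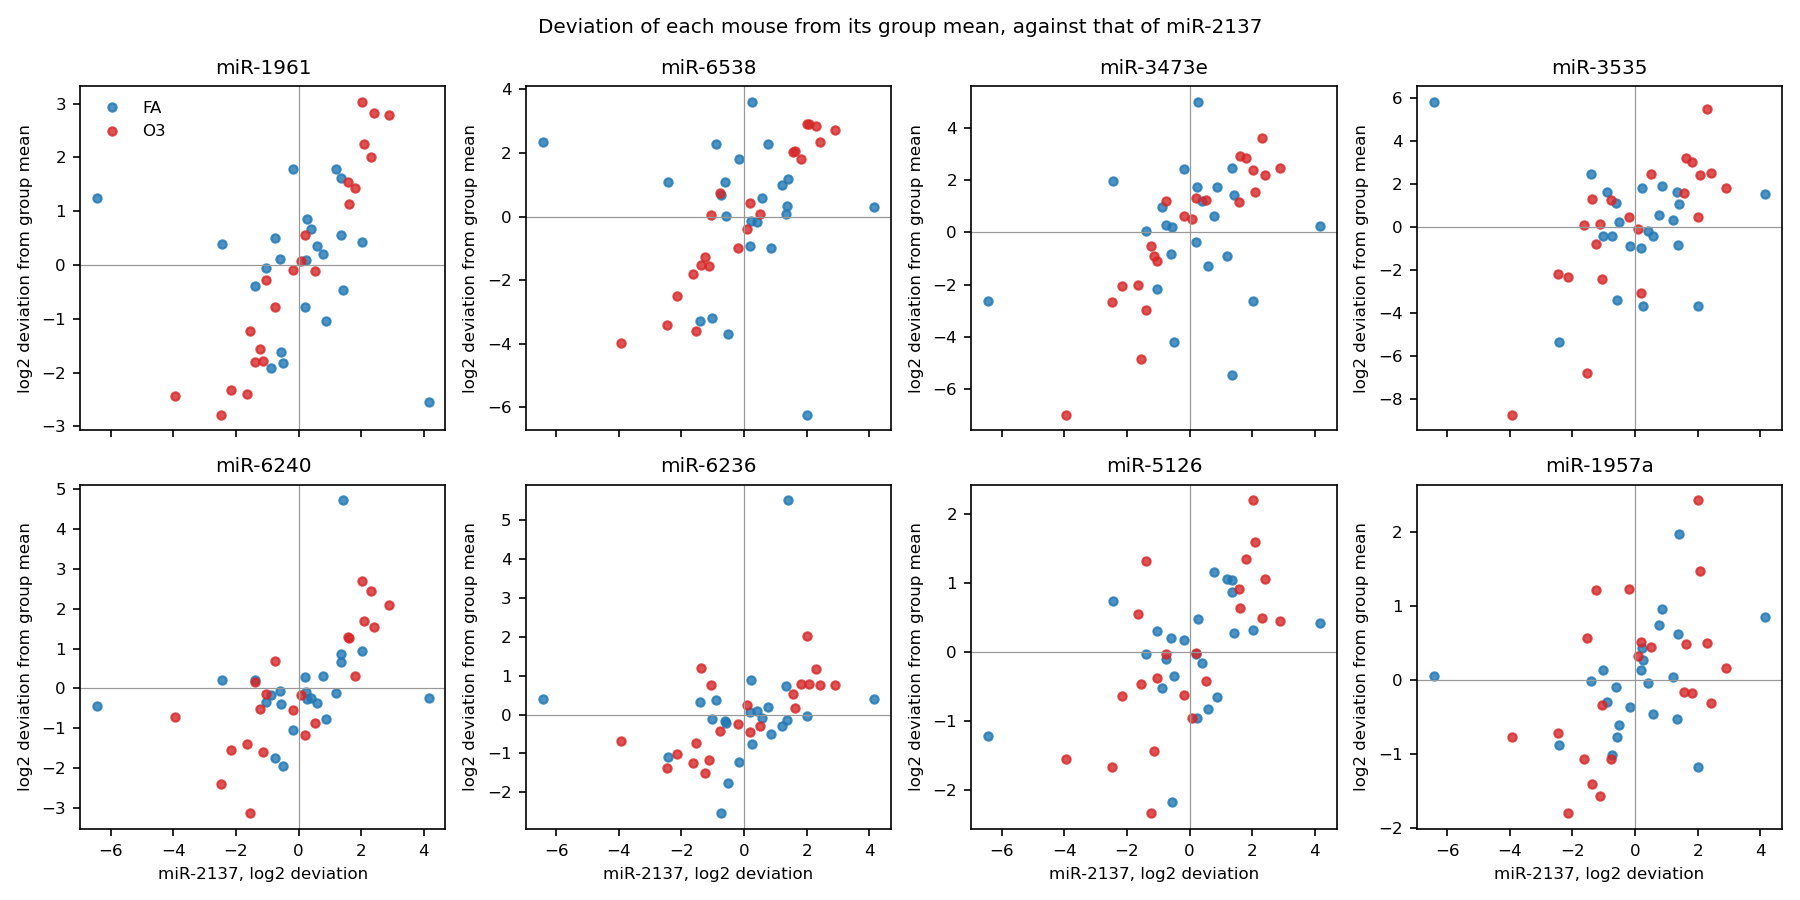
Deviation of each mouse from its group mean in 8 members (y axis, log2 units) against its deviation in miR-2137 (x axis, log2 units), with FA mice in blue and O3 mice in red. The O3 points of miR-1961 and miR-6538 follow a line with r of 0.96 and 0.95, and the FA point at the far left is co-ex male replicate 4, with no read of miR-2137.

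After FA, which entered the choice only as the lower side of the ratio, 0 of the 9 members passed with a positive slope, beside 4.75% of the 337 miRNAs fitted. Of the 337, 56 had an unadjusted p under 0.05 in this limma fit. Among the members, the highest r with miR-2137 after FA was that of miR-5126 (r = 0.40, rho = 0.43, permutation p = 0.076 and 0.08, 23 mice). For miR-6240 r was 0.26 and rho 0.41 (permutation p = 0.072 and 0.0687). For miR-1961 r was -0.22 and rho 0.07 (permutation p = 0.508 and 0.779), and for miR-6538 r was -0.18 and rho -0.13 (permutation p = 0.673 and 0.616). The other 5 members had r between -0.44 and 0.29, with permutation p of 0.123 or more. Co-ex male FA replicates 2 and 4 lay farthest from the median in miR-2137, and without them r was 0.42 for miR-6240, 0.32 for miR-1961 and -0.07 for miR-6538. All 16 miRNAs that passed after FA did so only with co-ex male FA replicate 4 in the fit. Without that mouse 0 of 337 passed, and still 0 of the 9 members. The r of miR-3535, miR-1957a and miR-6236 was then 0.53, 0.53 and 0.44. Their slopes were 0.92, 0.34 and 0.56 (limma adjusted p = 0.271, 0.284 and 0.309). For miR-1957a and miR-6236 these slopes were larger than those after O3. In the other members r then lay between -0.44 (miR-3470a) and 0.33 (miR-6240).

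**Figure D4:**
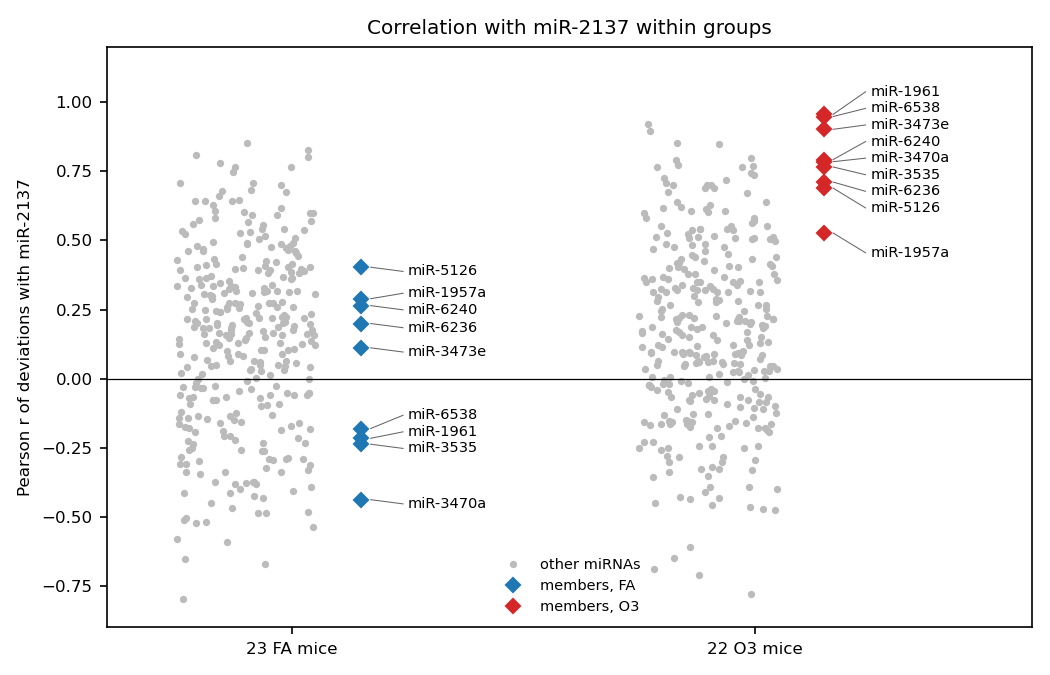
Pearson r of within-group deviations with those of miR-2137 (y axis) for the members (diamonds, named) and the other miRNAs fitted (grey points), over 23 FA mice and 22 O3 mice. The members lie between -0.44 and 0.40 after FA and between 0.53 and 0.96 after O3. Without co-ex male FA replicate 4, which had no read of miR-2137, they lay between -0.44 and 0.53 after FA.

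The difference between the slopes after O3 and after FA was fitted over all 45 mice, a test added after the values were seen. It uses the O3 and FA values that chose the members, so it is not independent of that choice. It passed the FDR of 0.1 with a larger slope after O3 for 4 of 9 members, beside 2.67% of the 337 miRNAs. The difference was 1.10 ± 0.18 (SE) for miR-1961 (limma adjusted p = 3.63e-05), 1.35 ± 0.29 for miR-6538 (adjusted p = 0.00337), 1.63 ± 0.39 for miR-3535 (adjusted p = 0.0108) and 1.17 ± 0.35 for miR-3473e (adjusted p = 0.046). For miR-6240 it was 0.50 ± 0.19 (adjusted p = 0.173). Without co-ex male FA replicate 4, only miR-1961 (0.98, adjusted p = 0.0477) and miR-3473e (1.71, adjusted p = 0.0678) passed. The difference for miR-6538 was then 1.05 (adjusted p = 0.291) and that for miR-3535 0.42 (adjusted p = 0.757).

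Taken pair by pair, the 9 members of all tables gave 36 correlations. After O3 the median r of the pairs was 0.71 and all 36 were positive, from 0.18 (miR-1957a with miR-3535) to 0.96 (miR-2137 with miR-1961). After FA the median was 0.12 and r ranged from -0.31 to 0.91. Over the 21115 pairs of the 206 miRNAs in all tables, the median was 0.04 after O3 as well as after FA. These pairs share mice and libraries and are described without a test. The 0.91 after FA was that of miR-6240 with miR-6236, and it fell to 0.22 without SP-A2 female FA replicate 4. After O3 the same pair had r = 0.81.

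Depth and the markers of other cells were set beside these values. The mouse with the most miR-2137 had the fewest reads of its group in 4 of 6 groups after O3 and in 4 of 6 after FA. The correlation of the deviations in log2 reads with those in miR-2137 was r = -0.37 and rho = -0.41 after O3 (permutation p = 0.143 and 0.0831, adjusted over 16 relations 0.295 and 0.256), and without the 2 farthest mice r was -0.63. With log2 reads as a further covariate, chosen after the data were seen, 7 of the 9 members still passed after O3. The summed epithelial markers correlated with miR-2137 after O3 (r = 0.73, rho = 0.66, permutation p = 0.00092 and 0.00293, adjusted over 16 relations 0.0147 and 0.0469), and without the 2 farthest mice r was 0.67. After FA the epithelial sum had r = 0.47 and rho = 0.39 (permutation p = 0.053 and 0.112). Without miR-34b-3p, an epithelial marker that is itself among the miRNAs most like miR-2137 after O3, the epithelial sum had r = 0.55 and rho = 0.46 after O3 (permutation p = 0.0264 and 0.0569, adjusted 0.141 and 0.256), which did not pass. In KO females the epithelial sum was 5123 to 10520.1 after FA and 6609 to 43427 after O3, and in KO males 3145 to 10564 and 8634 to 40161. In SP-A2 males it was 6542 to 9472 and 13100 to 17628, and in SP-A2 females 5831 to 11678 and 6139 to 22748. Co-ex males had 3335 to 11440 and 12670 to 16608, and co-ex females 839 to 7415 and 9035 to 24493. The exposures thus did not overlap in SP-A2 males and co-ex mice. The mesenchymal sum overlapped only in co-ex males and KO females. With the epithelial sum as a covariate, also chosen later, 4 of 9 members passed, miR-1961, miR-6538, miR-3473e and miR-3535. The macrophage or myeloid sum had r = -0.03 after O3 (-0.41 without the 2 farthest mice), the mesenchymal sum -0.05, the erythroid sum 0.04 and the lymphoid marker miR-150-5p 0.12, all with permutation p of r above 0.6. The macrophage or myeloid sum mostly follows miR-21a-5p (median 35246 normalized, against 2266 for miR-223-3p). Likewise, the erythroid sum mostly follows miR-486b-5p (median 31032). These sums are therefore not measures of the number of such cells. The endothelial sum had r = 0.53 (permutation p = 0.0684). No endothelial marker was listed for co-ex mice and KO females. Their mice entered with a deviation of 0, so only SP-A2 mice and KO males could add to this relation. The part of cells other than AM in the values of the members was not tested otherwise, and in bulk RNA more cells of a type and more RNA per cell cannot be told apart.

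Among miRNAs outside the list, those whose deviations after O3 were most like those of miR-2137 were miR-92b-3p (r = 0.92), miR-34b-3p (r = 0.90), miR-320-5p (r = 0.85), miR-3060-5p (r = 0.80) and miR-5099 (r = 0.77), each over 22 mice and past the FDR of 0.1. They are the 5 with the largest r of the 15 that passed among miRNAs in all 6 tables. Their r with miR-2137 after FA was between 0.05 and 0.17. The 5 most like it after FA were miR-221-3p (r = 0.85), miR-193a-5p (r = 0.83), miR-5100 (r = 0.81), the lymphocyte miRNA miR-150-5p (r = 0.80) and miR-448-3p (r = 0.78), over 23 mice. None of these passed without co-ex male FA replicate 4, when their r lay between 0.33 and 0.64. Their r after O3 was between -0.34 and 0.34.

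Genotype and sex were compared in the 23 FA mice alone, where O3 had no part, on whole reads recovered from the normalized values and scaled over the 206 miRNAs of all tables. Since each genotype and sex had its own table, differences between genotypes and differences between tables cannot be told apart. After FA, SP-A2 mice had less miR-5126 and less miR-1961 than co-ex mice. The mean log2 CPM (reads scaled to the same depth, on the log2 scale) of miR-5126 was 11.24 ± 0.11 (SD, n = 3) for SP-A2 males and 10.19 ± 0.22 (n = 4) for SP-A2 females. Co-ex males had 12.70 ± 0.82 (n = 4) and co-ex females 13.16 ± 1.55 (n = 4). SP-A2 minus co-ex was -2.34 ± 0.53 (SE, log2, limma adjusted p = 0.00249). For miR-1961 the means were 5.37 ± 0.73 (n = 3), 6.54 ± 1.48 (n = 4), 8.73 ± 1.69 (n = 4) and 8.05 ± 1.41 (n = 4) in the same order, and the difference was -2.43 ± 0.83 (adjusted p = 0.027). These 2 of 9 members stood beside 38.8% of the 206 miRNAs that passed in that contrast, of which 59 were higher and 21 lower in SP-A2, with a median difference of 0.76 over all 206.

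**Figure D5:**
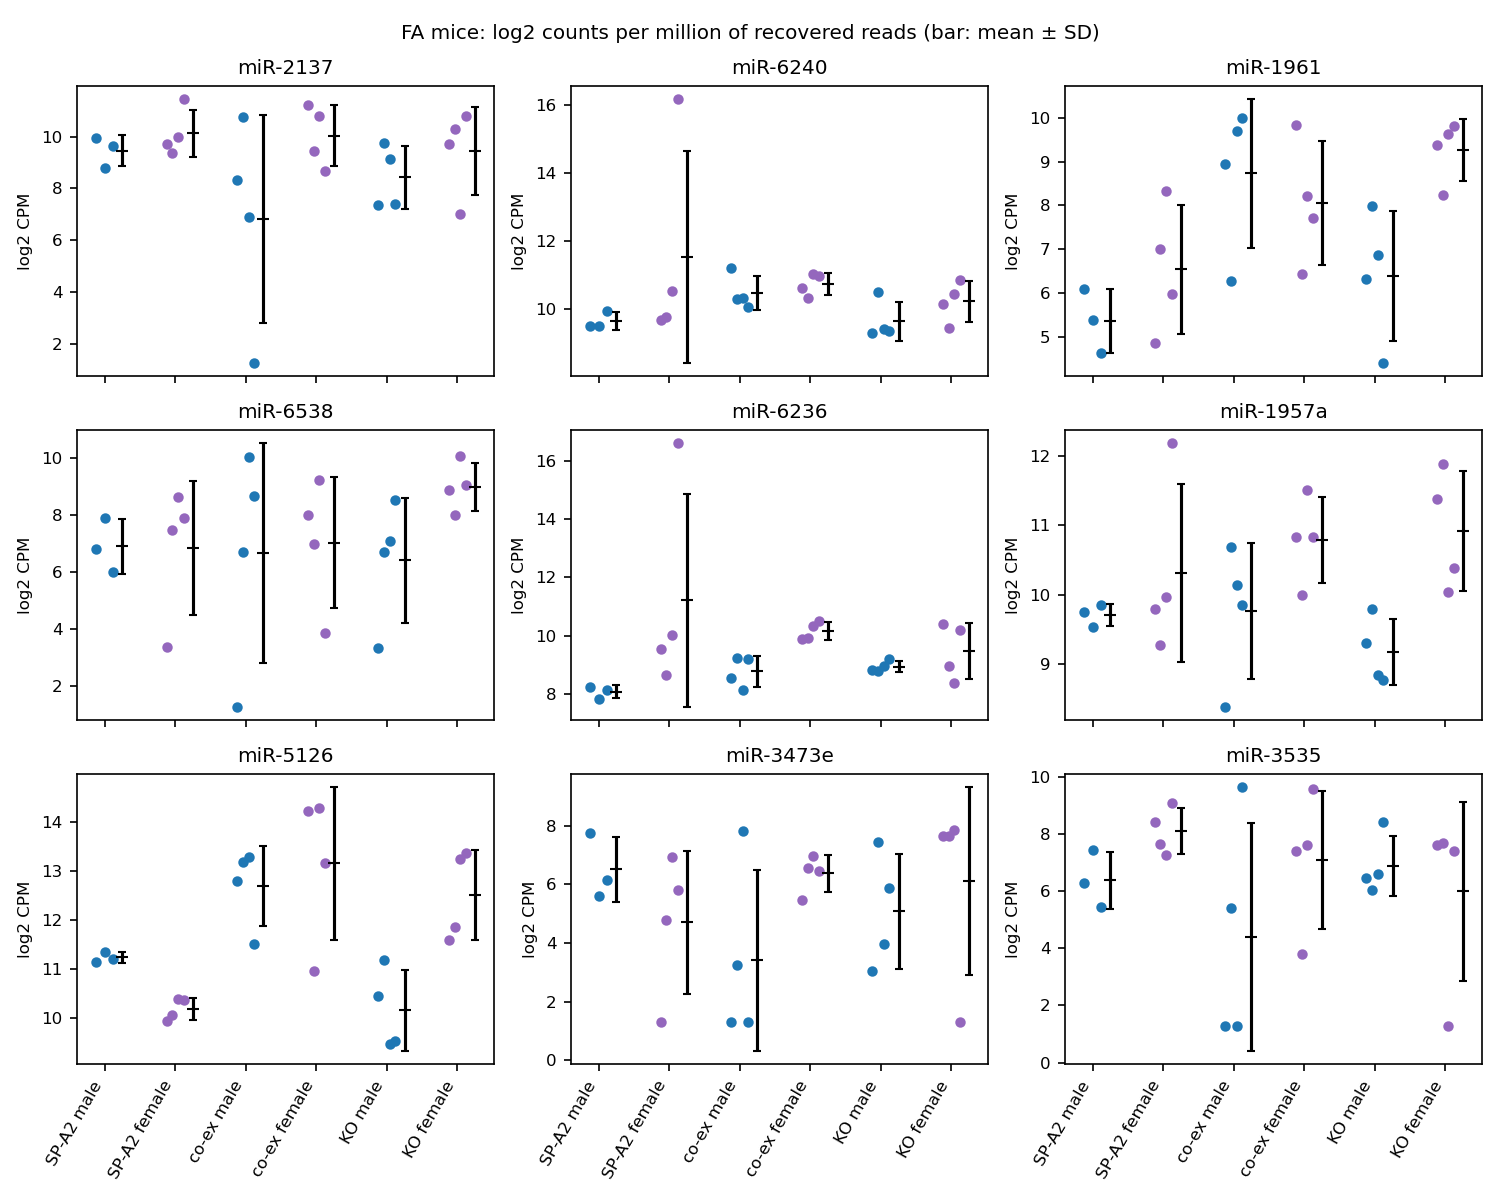
Log2 CPM of recovered reads in the FA mice for the 9 members of all tables, by genotype and sex (blue males, purple females), with bars for mean ± SD. miR-5126 is lowest in SP-A2 females and KO males, at 10.19 and 10.16, and miR-6240 and miR-6236 each have a single high SP-A2 female.

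Against KO, co-ex mice had more miR-5126 after FA, by 1.59 ± 0.51 (SE, log2, limma adjusted p = 0.0913), the only member of 9 to pass beside 5.34% of the 206 miRNAs. This call was lost in edgeR's quasi-likelihood test (adjusted p = 0.173), and it was lost in limma without any 1 of 12 of the 23 mice, among them each KO male, with adjusted p of 0.163 at most. KO males had a mean of 10.16 ± 0.82 (SD, n = 4) and KO females 12.51 ± 0.92 (n = 4). Between SP-A2 and KO, 0 of 9 members passed in limma beside 3.4% of the 206 miRNAs, with 26 miRNAs at an unadjusted p under 0.05. The count was 0 in DESeq2, which gave no adjusted p for miR-1961, miR-3473e, miR-3535, miR-6236, miR-6240 and miR-6538. Those members could not pass there. In edgeR miR-6240 passed (2.79 on the log2 scale, adjusted p = 0.0935), and without SP-A2 female FA replicate 4 its difference was -0.04 (adjusted p = 0.974). Likewise, miR-6236 passed in edgeR between SP-A2 and co-ex (3.29, adjusted p = 0.0455), and without that mouse it was -0.67 (adjusted p = 0.325).

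Males and females after FA differed in 0 of 9 members at the FDR of 0.1 in limma, beside 0% of the 206 miRNAs, with 19 miRNAs at an unadjusted p under 0.05. The estimates for the members were all lower in males, beside a median of -0.06 over all 206 miRNAs. These estimates share the same mice, so no sex difference of the set is read from their common direction. They were -1.14 ± 0.35 (SE, log2) for miR-1957a (adjusted p = 0.231), -1.68 ± 0.75 for miR-2137 (adjusted p = 0.48) and -1.61 ± 0.62 for miR-6236 (adjusted p = 0.446), and the other 6 lay between -0.67 and -1.14. Without SP-A2 female FA replicate 4, miR-6236 was at -1.07 (adjusted p = 0.297) and miR-2137 at -1.61 (adjusted p = 0.523). edgeR called 0 miRNAs in this contrast. DESeq2 called 2, of which miR-1957a was 1, and gave no p for miR-6236 and miR-6240.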

How the data were processed

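Small RNA libraries (NEXTflex kit, Illumina HiSeq) of AM from 45 mice were sequenced by the authors, who deposited 1 table for each genotype and sex. The deposited values are a signal, normalized read counts per miRNA within a table, beside 18 columns of p-values, q-values and ranks from the authors' own comparison, which were not used. The submitters' processing notes name CASAVA and edgeR. The aligner and build were not given in the sources used here.

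In each mouse the values were whole multiples of 1 step for 100% of miRNAs (within 0.01 of a whole read), and whole reads were recovered by dividing by it. The reads on listed miRNAs served as depth. Replicates differed beyond sampling noise in all 63 pairs within groups (lowest chi-square per degree of freedom 49.4), and each mouse counted once. Intervals and limits cover counting error only.

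Deviations of log2(normalized value + 1) from the group mean were fitted on those of miR-2137 with limma 3.58.1 in R 4.3.3 (group as a factor, at least 10 mice with a value, FDR 0.1, Benjamini-Hochberg over all miRNAs fitted). Single correlations used permutation tests in Python 3.11.15. Genotype and sex were fitted in limma on log2 CPM of recovered reads (TMM, prior count 2). Count tests on the recovered reads, edgeR 4.0.16 and DESeq2 1.42.0, were alternatives. edgeR called 12 miRNAs in SP-A2 minus KO, 1 in co-ex minus KO, 42 in SP-A2 minus co-ex and 0 in male minus female. The fits were tested on simulated data. Other pseudocounts, centring, low-value filters, a replicate block, marker and depth covariates and leaving out each mouse were also tried.

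The members and lists were chosen with earlier results of these data known. Named beside the members are the 5 other miRNAs most like miR-2137 by r after each exposure, among those past the FDR and in all tables, the marker lists, and miRNAs that share a seed. Mature sequences come from RefSeq (GRCm38.p6), and positions and host genes from GENCODE.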

Additional observations from a re-analysis of the deposited data

Results flagged for a closer look

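In 96 groups of 4 mice (9 or 10 members and their summed share of reads, by group), the mouse at 1 end stood apart from the other 3 by Dixon's test in 21 cases. The limit used is passed by about 1 in 20 groups of independent, normally distributed values. These values were not put on a log scale and the same mice recur across members, so the 21 cannot be compared with that rate. These values were selected by their size and carry no further test.

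SP-A2 female FA replicate 4 was apart in miR-6236 (89827 normalized), miR-6240 (65316), miR-1957a (4140) and miR-2137 (2478), and in the summed share (19.5% of reads). KO female O3 replicate 1 was apart in miR-2137 (33791), miR-6538 (9974.5), miR-6240 (8424) and miR-1961 (6637), and in the summed share (6.75%). The other O3 mice apart were co-ex female replicate 3 in miR-2137 (24995) and SP-A2 female replicate 1 in miR-1957a (5177).

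Among KO males after FA, replicate 2 was apart in miR-6240 (1241) and in the summed share (0.648%), and replicate 4 in miR-6236 (536) and miR-3535 (314). KO female FA replicate 4 had 0 of miR-3473e, below the other 3. Among co-ex males after FA, replicate 1 was high in miR-6240 (2558), replicate 3 in miR-3473e (197) and replicate 4 in miR-3535 (734), and replicate 4 was low in miR-5126 (2706).

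The slope on miR-2137 differed between the exposures, by limma's test of the difference, in 4 members. That test is not independent of the choice of the members, which used the same values. The slope was larger after O3 by 1.10 for miR-1961, 1.17 for miR-3473e, 1.63 for miR-3535 and 1.35 for miR-6538. These are differences between the 2 slopes. The calls of miR-6538 and miR-3535 were lost without co-ex male FA replicate 4 (limma adjusted p = 0.291 and 0.757).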

How the results depend on the processing

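After O3, 7 members passed with a pseudocount of 0.1, the low-value filter, recovered reads and the depth covariate, 8 with a pseudocount of 10, 5 with centring, 4 with the epithelial sum as a covariate, and 7 to 8 when 1 mouse was left out. Of all miRNAs, 12 passed with centring and 9 with the epithelial sum, against 27. After FA the count of all miRNAs was 29 with a pseudocount of 0.1 and 4 with 10, and 0 to 22 when 1 mouse was left out, against 16. The FA slope of miR-3473e (0.13) turned to -0.0146 with a pseudocount of 10, -0.0123 with centring and -0.0400 with the epithelial sum, under which that of miR-3535 was 0.0256. Leaving out 1 mouse, FA slopes ranged from -0.17 to 0.0527 for miR-1961, -0.32 to 0.0896 for miR-6538, -0.40 to 0.26 for miR-3473e and -0.56 to 0.92 for miR-3535. The slope difference passed in 2 to 5 members and 3 to 12 of all miRNAs (14 with a pseudocount of 0.1, against 9), and ranged from -0.19 to 0.34 for miR-6236 and -0.0397 to 0.24 for miR-1957a.

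After FA, SP-A2 minus KO gave 12 calls in edgeR (1 member), 14 in DESeq2, 0 with DESeq2 size factors and 0 to 12 without 1 mouse, against 7. Co-ex minus KO gave 1 in edgeR (0 members), 7 in DESeq2 and 5 to 28 (0 to 1 members) without 1 mouse, against 11. SP-A2 minus co-ex gave 42 in edgeR, against 80. Male minus female gave 2 in DESeq2 (1 member) and 0 to 4 (0 to 1 members) without 1 mouse, against 0.

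Without 1 mouse, 2 to 7 members were at least 2-fold in co-ex males and 2 to 7 in KO females (3 by medians), and ratios ranged from 0.650 to 67.3 for miR-3473e and 0.690 to 144 for miR-3535 in co-ex males, 0.863 to 5.42 for miR-1961 in co-ex females and 0.907 to 3.04 for miR-3473e in KO females (0.961 by medians). The low ends were those without replicate 3 of co-ex male or female O3 and replicate 1 of KO female O3. The cause of these changes was not tested.

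Replicate numbers are shared between groups. For same-numbered FA and O3 mice of a table, r of the deviations had a median of 0.01 (22 pairs, r from -0.24 to 0.35, 6 above 0.1). Same-numbered mice of different tables were not compared. With the replicate number as a block, 0 members passed after FA and 5 after O3 (13 of all miRNAs), and co-ex minus KO gave 21 calls.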
